A study of Mus musculus with 15 samples.

Results

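C1qa and C1qb encode the A and B chains of C1q, the protein that starts the classical complement pathway. Their levels were read in embryonic mouse mammary buds and belly skin with Affymetrix MOE430A arrays, whose short probes are combined into probe sets, each meant for 1 transcript. The 4 probe sets that the authors' lists name C1qa (1, 1417381_at) or C1qb (3, 1417063_at, 1434366_x_at and 1437726_x_at) were taken from a table of 22690 probe sets, and all 4 passed the filter on low values. A symbol was known only for the 2381 probe sets on the authors' 4 lists of differing transcripts, so these members carry a name because they were listed as different in a bud or skin comparison. The ending _x_at marks a probe set whose probes can bind other transcripts too. All embryos were of the CD-1 strain, on embryonic day 15, and there were 3 arrays in each of 5 groups. The groups were wild-type (WT) buds, buds with the PTHrP-/- label, WT ventral skin, ventral skin labelled K14WT, which is wild-type skin set beside the transgenic, and ventral skin with the K14-PTHrP label, in which the keratin 14 promoter drives PTHrP in basal keratinocytes. PTHrP is a secreted peptide of the bud epithelium encoded by Pthlh. Tissue was pooled by genotype before RNA was isolated, and some 20 ug of RNA took 120 buds on average. Nothing in the labels tells if replicate arrays had pools of their own, so the p-values measure a spread that may be technical.

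C1q is built from A, B and C chains, each with a collagen-like stalk and a globular head. The heads bind antibody on a target, or the surface of dying cells, and the stalks carry the proteases C1r and C1s. Most complement proteins of the blood come from the liver, but C1q is made mainly by macrophages and related phagocytes, including the resident macrophages of skin, so its chains serve as macrophage markers in bulk tissue. In the RefSeq gene table (assembly GRCm38.p6) C1qb, C1qc and C1qa are neighbours in that order on chromosome 4. C1qc, the C chain, has no named probe set here. The bases before the C1qb start are shown because its 3 probe sets are meant to read the transcript that begins there, and because the factor PU.1, which macrophages depend on, binds purine-rich sites with the core GAGGAA. The window holds the 250 bases before the start (RefSeq, GRCm38.p6, chr4:136886201-136886450, minus strand), written 5′ to 3′ with the match to GAGGAA in capitals.
C1qb: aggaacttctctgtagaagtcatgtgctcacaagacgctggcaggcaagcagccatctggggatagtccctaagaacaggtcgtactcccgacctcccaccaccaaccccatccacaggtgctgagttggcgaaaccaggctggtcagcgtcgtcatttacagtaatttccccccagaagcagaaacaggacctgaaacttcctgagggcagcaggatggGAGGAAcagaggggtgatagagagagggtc
The search covered GAGGAA on both strands (TTCCTC on the printed one) and found 1 match, at base 221 of the window. Of 32851 windows of the same length before RefSeq starts, 23.3% held at least 1 match, so the match is a description of this window and no more.

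The arrays of a group correlated at r = 0.964 to 0.994 across the 11690 kept probe sets, and the median SD of a probe set among the 3 arrays was lowest in buds with the PTHrP-/- label (0.115 log2 units) and highest in skin with the K14-PTHrP label (0.202). In WT skin, 120 kept probe sets stood more than 1 log2 unit outside the range of the other 12 arrays. None of the 4 C1q probe sets was among them. Pthlh, the targeted gene, was at 5.43 ± 0.51 (SD over 3 arrays) in WT buds, 6.40 ± 0.37 in buds with the PTHrP-/- label, and at 4.16 ± 0.26 in K14WT skin and 3.54 ± 0.13 in skin with the K14-PTHrP label. Its level thus went against both labels. Where its probe set lies relative to the deletion and the transgene is unknown here, so directions rest on the labels. The Pthlh mean under the K14-PTHrP label was below the array medians, 3.86 to 4.05. Sim2, a gene of epidermis and bud epithelium, instead followed both labels. Its mean dropped from 3.82 ± 0.72 (WT buds) to 2.37 ± 0.04 (PTHrP-/- label, limma adjusted p = 0.118). The skin mean climbed from 2.36 ± 0.03 (K14WT) to 4.24 ± 0.28 (K14-PTHrP label, limma adjusted p = 0.0026). All of these Sim2 means but the last lay below the array medians. Sim2 was 1 of 13 kept genes listed for epidermis and bud epithelium. Of the 13, 11 were lower and 2 higher in buds with the PTHrP-/- label than in WT buds. In skin with the K14-PTHrP label 9 were lower and 4 higher than in K14WT skin. All 13 are named only through the authors' lists, so nothing is read from Sim2 about the labels. Of 5 defining macrophage markers (Csf1r, Adgre1, Cd68, Mrc1, Cx3cr1) none had a named probe set, so the cell type behind C1q could not be checked with them. The epithelial keratin Krt14 was at 10.8 to 11.5 in the group means of its brighter probe set, high in each group.

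C1qa lay in the upper part of each array, above 66.8% to 81.9% of probe sets. Its log2 levels were 6.14, 6.26 and 6.47 in WT buds and 6.05, 5.68 and 5.94 in buds with the PTHrP-/- label. They were 6.90, 7.20 and 7.20 in WT skin, 6.64, 6.63 and 6.66 in K14WT skin, and 6.95, 6.84 and 7.53 in skin with the K14-PTHrP label. Every skin array was above every bud array, and the bud groups did not overlap each other. In the authors' deposited tables this probe set was nonetheless called absent on 3 of 3 arrays in both bud groups, and in WT skin marginal on 1 and absent on 2, so the authors' detection call and the normalized level part for C1qa, and its fold changes are those of normalized levels and not exact.

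The C1qb probe set 1417063_at read lower on the arrays, above 50.7% to 69.4% of probe sets. It was at 4.72, 4.70 and 5.28 in WT buds and 4.02, 4.21 and 4.21 in buds with the PTHrP-/- label. In skin it was at 5.56, 6.09 and 5.43 in the WT group, 5.33, 4.65 and 4.66 in the K14WT group, and 5.80, 5.54 and 5.63 in the group labelled K14-PTHrP. The 3 arrays labelled PTHrP-/- were the lowest of all 15 and stood just above the middle of their arrays. K14WT skin ranged over the WT bud values, while the other skin groups lay above them. In the authors' deposited tables it was called present on 2 and marginal on 1 of the WT bud arrays, present, marginal and absent on 1 each of those labelled PTHrP-/-, and present on 3 of 3 WT skin arrays.

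Both C1qb probe sets ending in _x_at stood high on each array, above at least 80.5% of probe sets. The first, 1434366_x_at, read 7.35, 7.55 and 7.83 in WT buds and 8.15, 8.09 and 7.94 in buds with the PTHrP-/- label. Its skin levels were 8.17, 8.20 and 8.31 in the WT group, 8.29, 7.47 and 8.01 in the K14WT group, and 8.30, 8.38 and 8.40 in the group labelled K14-PTHrP. Here the WT buds, not the buds with the PTHrP-/- label, had the lowest mean, and the bud groups did not overlap. In the authors' deposited tables this probe set was called present on 2 and marginal on 1 of the WT bud arrays. It was called present on 3 of 3 arrays both in buds with the PTHrP-/- label and in WT skin. The second, 1437726_x_at, read 7.53, 7.62 and 7.66 in WT buds, 8.06, 7.69 and 7.51 in buds with the PTHrP-/- label, 8.49, 7.82 and 8.79 in WT skin, 7.94, 7.63 and 8.02 in K14WT skin, and 8.34, 8.36 and 8.75 in skin with the K14-PTHrP label. Its bud groups overlapped, and skin with the K14-PTHrP label was above every bud array. The authors' deposited table called this probe set absent on all 3 WT bud arrays and present on 2 of 3 WT skin arrays, so its folds against WT buds are not exact either.

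**Figure D1:**
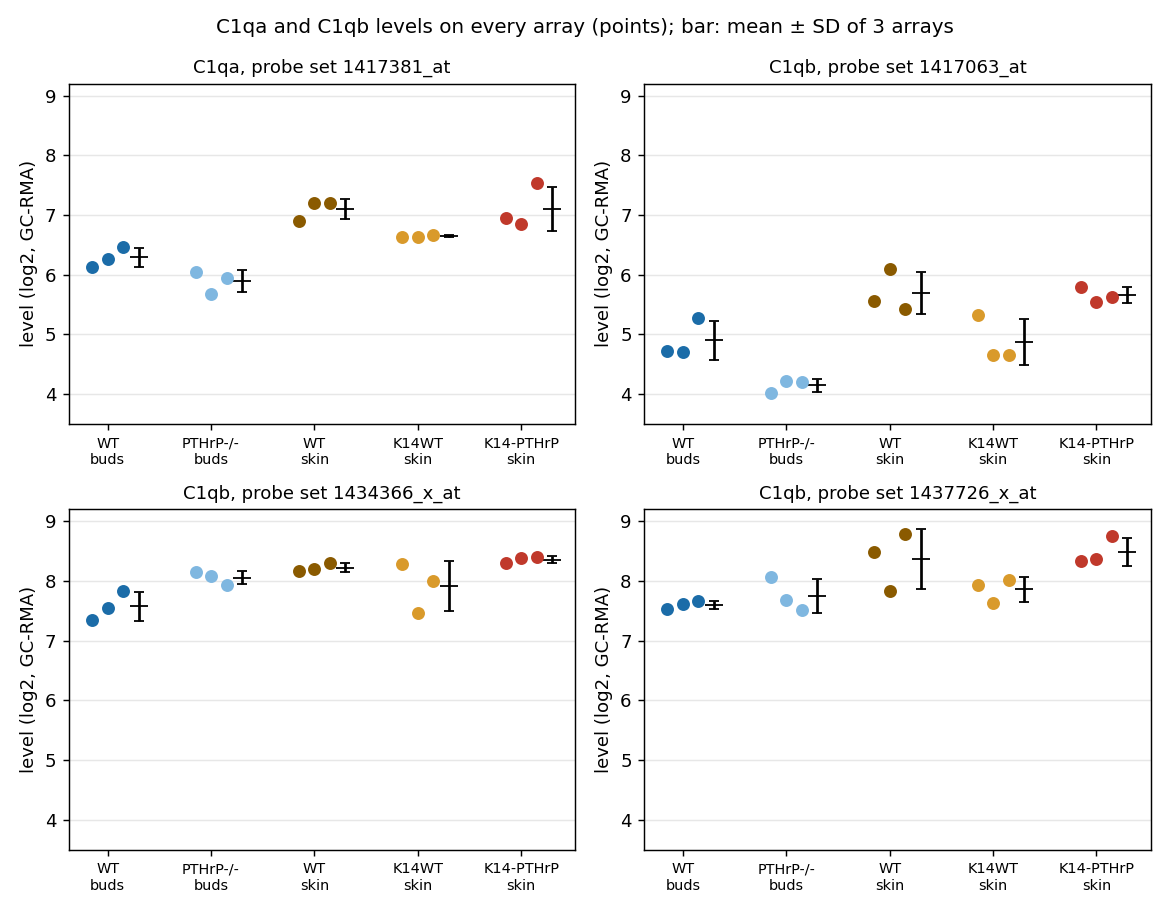
Log2 level (y axis) of the C1qa probe set and the 3 C1qb probe sets on each of the 15 arrays (points, by group on the x axis), with the mean ± SD of 3 arrays. WT skin and skin with the K14-PTHrP label are high in every panel, and buds with the PTHrP-/- label are lowest in the upper panels but above WT buds at 1434366_x_at.

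Ordered by mean level, skin with the K14-PTHrP label (7.11 ± 0.37, SD, n = 3) and WT skin (7.10 ± 0.17) led for C1qa, followed by K14WT skin (6.64 ± 0.02), WT buds (6.29 ± 0.17) and buds with the PTHrP-/- label (5.89 ± 0.19). No neighbours in this order differed past the threshold, an adjusted p under 0.05 (limma, lowest adjusted p among neighbours 0.109 for K14WT against WT skin). For C1qb at 1417063_at the order was WT skin (5.70 ± 0.35), skin with the K14-PTHrP label (5.66 ± 0.13), WT buds (4.90 ± 0.33), K14WT skin (4.88 ± 0.39) and buds with the PTHrP-/- label (4.15 ± 0.11). Again no neighbours passed, and WT buds and K14WT skin differed by only 0.02. At 1434366_x_at buds with the PTHrP-/- label (8.06 ± 0.11) came between WT skin (8.23 ± 0.07) and K14WT skin (7.92 ± 0.42). At 1437726_x_at they came (7.75 ± 0.28) between K14WT skin (7.86 ± 0.21) and WT buds (7.60 ± 0.07). In both of these orders skin with the K14-PTHrP label came first and WT buds last, and no neighbours passed.

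The loss of PTHrP in the bud was the question of the first comparison, and no C1q probe set passed its test. C1qb at 1417063_at was 1.69-fold lower in buds with the PTHrP-/- label than in WT buds (log2 difference -0.75 ± 0.21 SE, 95% interval -1.22 to -0.29, 3 arrays per group, limma adjusted p = 0.228). C1qa was 1.32-fold lower (-0.40 ± 0.17, -0.76 to -0.04, adjusted p = 0.329). The other C1qb probe sets went the other way, 1434366_x_at by 0.48 ± 0.17 (0.11 to 0.86, adjusted p = 0.275) and 1437726_x_at by 0.15 ± 0.22 (-0.32 to 0.62, adjusted p = 0.754). Of all kept probe sets 0.0342% passed in this comparison, so 0 of 4 is what the background gives. At an unadjusted p under 0.05 the count was 3 of 4, against 14.1% of kept probe sets. Arrays did not overlap for 3 of the 4, against 32.2% of all kept probe sets. These 3 are the probe sets that the authors listed from this comparison, so nothing is read from either count. With arrays weighted by their estimated quality, 1417063_at alone passed (-0.76, adjusted p = 0.0436).

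The probe sets of C1qb thus split by sign in the bud comparison. The authors' deposited tables hold the same split, with 1434366_x_at at 1.39-fold among the higher probe sets of buds with the PTHrP-/- label (Cyber-T false discovery rate 0.012), and 1417063_at at 1.71-fold (0.0022) and C1qa at 1.32-fold (0.0408) among the lower ones. The change at 1434366_x_at exceeded that at 1417063_at by 1.24 log2 units, and the change at 1437726_x_at exceeded it by 0.90. In both cases the differences per array did not overlap between the bud groups. Since 1434366_x_at and 1417063_at were listed by the authors as higher and lower in this comparison, these gaps are a description and were given no test. In WT skin against WT buds the same gaps were -0.14 and -0.03 log2 units. The authors listed all 3 C1qb probe sets as higher in that comparison, which favours small gaps, so these too are a description without a test. In the K14 comparison the gaps were -0.34 and -0.16 (exact two-sided permutation p = 0.2 and 0.6, where 3 against 3 arrays allow no less than 0.1). Arrays overlapped in both comparisons. The kept probe sets ending in _x_at, 1087 in number, had a median bud difference of 0.08, and the other 10603 had one of -0.04. Of the 56 genes that the authors' deposited tables hold as both higher and lower in buds with the PTHrP-/- label, 21 were higher only at probe sets ending in _x_at and lower only at others, C1qb among them, and 0 the reverse. Probe sets ending in _x_at made up 23.8% of the list of higher transcripts, 5.73% of the list of lower ones and 9.3% of kept probe sets, so the lists differ in this over all genes. Whether the _x_at probes of C1qb read another transcript was not tested.

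**Figure D2:**
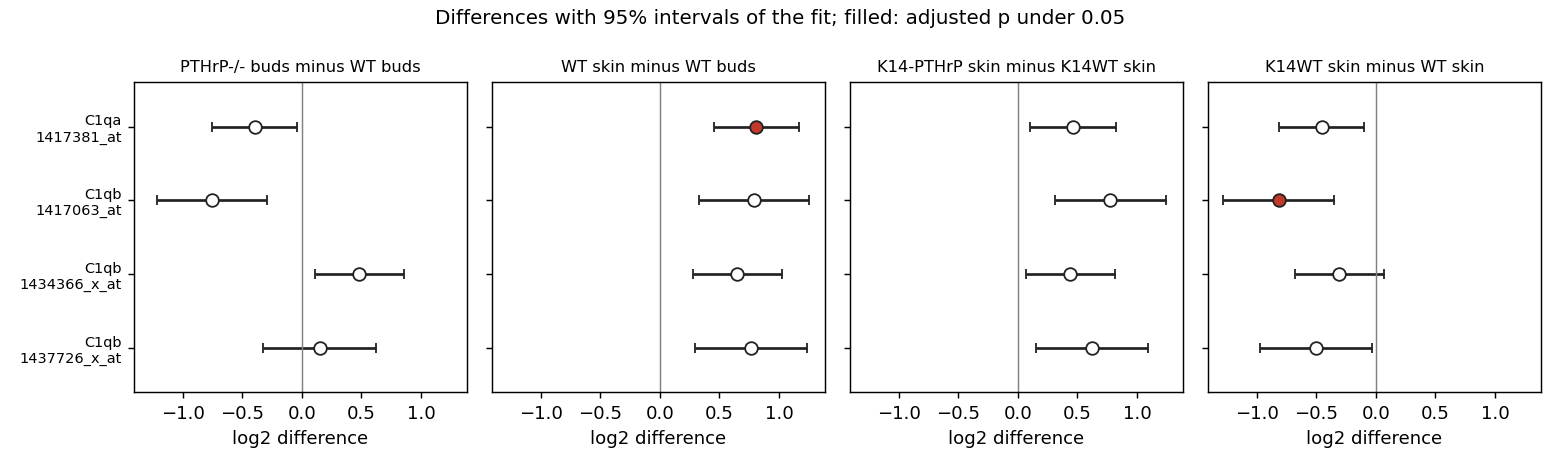
Log2 difference (x axis) of each C1q probe set in 4 comparisons, with the 95% interval of the fit; filled points have an adjusted p under 0.05. All 4 probe sets lie to the right of 0 in WT skin and in skin with the K14-PTHrP label, whereas the bud comparison splits them.

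WT skin read above WT buds at all 4 C1q probe sets, with no overlap of arrays, as 9.4% of kept probe sets did in that direction, and C1qa passed the test. In WT skin C1qa was 1.75-fold higher than in WT buds (0.81 ± 0.17 SE, 95% interval 0.45 to 1.17, 3 arrays per group, limma adjusted p = 0.0198). C1qb was higher by 0.79 ± 0.21 at 1417063_at, 0.65 ± 0.17 at 1434366_x_at and 0.77 ± 0.22 at 1437726_x_at, with adjusted p of 0.111, 0.104 and 0.144. All 4 probe sets are on the authors' list of transcripts higher in WT skin, at 1.56-fold to 1.76-fold in the authors' deposited table, which is how their names are known. Their direction in this comparison is therefore a description, not independent evidence. The call of C1qa (1 of 4, against 0.941% of kept probe sets called higher) was lost when the probe sets on which WT skin stood apart were left out (adjusted p = 0.0638), and without WT bud replicate 1 or 2 or WT skin replicate 2 or 3 (adjusted p = 0.0743 to 0.115). The C1qb probe sets passed under some other settings. With array weights all 3 did (0.63 to 0.86, adjusted p = 0.0105 to 0.0314), 1417063_at did without WT bud replicate 3 (0.98, adjusted p = 0.0465), and 1437726_x_at did without WT skin replicate 2 (1.04, adjusted p = 0.00908). In bulk tissue, fewer macrophages and less C1q RNA per macrophage cannot be told apart, and neither can the share of epithelium from that of the dermis around it.

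The authors' lists, through which the members have their names, do not use the transgenic comparison, though its results were known when the members were chosen. All 4 C1q probe sets were higher in skin with the K14-PTHrP label than in K14WT skin, each with every transgenic array above every control array, a lack of overlap that 4.74% of kept probe sets showed in that direction. None passed the test, against 0.71% of kept probe sets that did in either direction. All 4 had an unadjusted p under 0.05, as did 11.8% of kept probe sets. C1qb at 1417063_at was 1.71-fold higher (0.78 ± 0.21 SE, 95% interval 0.31 to 1.24, 3 arrays per group, limma adjusted p = 0.182), and 1437726_x_at was 1.54-fold higher (0.62 ± 0.22, 0.15 to 1.09, adjusted p = 0.304). C1qa was 1.38-fold higher (0.46 ± 0.17, 0.11 to 0.82, adjusted p = 0.317) and 1434366_x_at 1.36-fold (0.44 ± 0.17, 0.07 to 0.81, adjusted p = 0.363). Among all kept probe sets, 1.1% had a larger difference than 1417063_at and 5.89% a larger one than 1434366_x_at. The 3 probe sets of C1qb share a gene and all 4 share the arrays, so they are not 4 separate pieces of evidence. At 1417063_at K14WT replicate 1 (5.33) stood above replicates 2 and 3, and without it the difference was 1.002 (adjusted p = 0.029). With array weights it was 1.03 (adjusted p = 0.00417). Other arrays lowered the differences when left out. The C1qa difference was 0.253 without K14-PTHrP replicate 3, and that of 1434366_x_at was 0.212 without K14WT replicate 2, while that of 1417063_at went no lower than 0.66.

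The 2 sets of wild-type skin, K14WT and WT, also differed in C1q. K14WT skin lay below WT skin at all 4 probe sets, and 1417063_at was the only call, at a log2 difference of -0.82 ± 0.21 SE (1.76-fold, 3 arrays per group, limma adjusted p = 0.0369). C1qa differed by -0.46 ± 0.17 (adjusted p = 0.109), 1437726_x_at by -0.50 ± 0.22 (0.167) and 1434366_x_at by -0.31 ± 0.17 (0.288). Without K14WT replicate 2, 1434366_x_at differed by only -0.078, and without WT skin replicate 3, 1437726_x_at differed by -0.29. This comparison called 5.98% of kept probe sets lower and 1.39% higher, and 21.4% had non-overlapping arrays in the lower direction, as 2 of the 4 did, C1qa and 1417063_at. The authors listed all 4 as higher in WT skin than in WT buds, from these same WT skin arrays. Their place below WT skin is therefore a description and not independent evidence, and nothing is read from the counts. The call of 1417063_at was lost without the filter on low values, when only these groups were fitted, and without WT skin replicate 1 or 2 or K14WT replicate 2 or 3 (adjusted p = 0.0692 to 0.145). With array weights C1qa (-0.37, adjusted p = 0.0215) and 1437726_x_at (-0.48, 0.0313) passed as well, and the latter did so without WT skin replicate 2 (-0.78, 0.0427). The difference of the transgenic comparison uses the same K14WT arrays. Skin labelled K14-PTHrP and WT skin were close, with differences of 0.01 (95% interval -0.35 to 0.37) for C1qa and -0.04 (-0.50 to 0.42), 0.13 (-0.24 to 0.51) and 0.12 (-0.36 to 0.59) for C1qb at 1417063_at, 1434366_x_at and 1437726_x_at. None of the 4 passed there, against 3.21% of kept probe sets, and none had an unadjusted p under 0.05, against 15.2%. An effect of the transgene and a low C1q level in this set of K14WT arrays cannot be told apart.

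Against WT buds, skin with the K14-PTHrP label was higher at all 4 probe sets and 3 passed, C1qa (0.82 ± 0.17, adjusted p = 0.0185), 1434366_x_at (0.78 ± 0.17, 0.0264) and 1437726_x_at (0.88 ± 0.22, 0.0405). There 0.924% of kept probe sets were called higher. The authors listed all 4 as higher in WT skin than on these same WT bud arrays. Differences from WT buds are therefore a description and not independent evidence. These 3 calls were lost when only these groups were fitted (adjusted p = 0.0686 to 0.148) and without WT bud replicate 1 or 2 (0.0684 to 0.125). Those of the _x_at probe sets were also lost without K14-PTHrP replicate 1 or 2 (0.0667 to 0.0839), and that of 1437726_x_at without WT bud replicate 3 (0.0925). For 1417063_at the difference was 0.75 ± 0.21 (adjusted p = 0.0661), which passed with array weights (0.84, adjusted p = 0.00928) and without K14-PTHrP replicate 3 (0.77, 0.0492). K14WT skin against WT buds gave 0.355 ± 0.166 for C1qa (adjusted p = 0.170), and from -0.02 to 0.34 for C1qb, with 0 of 4 called by limma and 11.5% of kept probe sets called in either direction. None had an unadjusted p under 0.05, against 30.2% of kept probe sets. With array weights C1qa (0.36, adjusted p = 0.0309) and 1434366_x_at (0.40, 0.0193) passed, the latter also without K14WT replicate 2 (0.57, 0.028). Buds with the PTHrP-/- label lay farther below skin than WT buds did at C1qa and at 1417063_at. The authors listed both as lower in buds with the PTHrP-/- label than in WT buds and as higher in WT skin than in WT buds, so the differences from these same bud arrays are a description and not independent evidence. WT skin exceeded them by 1.21 ± 0.17 for C1qa (adjusted p = 0.000531) and 1.55 ± 0.21 for C1qb at 1417063_at (0.000577), a 2.92-fold difference, where 1.18% of kept probe sets were called higher. Skin labelled K14-PTHrP exceeded them by 1.22 ± 0.17 (adjusted p = 0.00167) and 1.51 ± 0.21 (0.00217), where 1.11% were called higher. The latter call of C1qa was lost when only these groups were fitted (adjusted p = 0.120). K14WT skin exceeded them by 0.75 ± 0.17 for C1qa (adjusted p = 0.0436, with 0.727% called higher) and 0.73 ± 0.21 for C1qb at 1417063_at (0.104). Its call for C1qa was lost without any 1 of the 6 arrays (adjusted p = 0.0520 to 0.172), and 1417063_at passed with array weights (0.56, adjusted p = 0.0148). Neither _x_at probe set passed against buds with the PTHrP-/- label (adjusted p = 0.127 to 0.852). Exceptions were 1437726_x_at with array weights, in WT skin (0.71, adjusted p = 0.0240) and skin with the K14-PTHrP label (0.61, 0.0454), and in WT skin without its replicate 2 (0.89, 0.0324).

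More against less PTHrP can be set side by side in both tissues, as WT buds against buds with the PTHrP-/- label and skin with the K14-PTHrP label against K14WT skin, which share no array. For C1qa the bud effect minus the skin effect was -0.07 ± 0.23 SE (95% interval -0.57 to 0.44, limma adjusted p = 0.965), and for 1417063_at -0.02 ± 0.30 (-0.68 to 0.63, adjusted p = 0.990). For these 2 probe sets the levels were higher on the side labelled with more PTHrP in both tissues, without passing the test in either. For 1434366_x_at the effects differed by -0.92 ± 0.24 (-1.45 to -0.39, adjusted p = 0.303) and for 1437726_x_at by -0.77 ± 0.31 (-1.44 to -0.10, adjusted p = 0.485), where 0.171% of kept probe sets passed. The unadjusted p was under 0.05 for these 2 of the 4 probe sets, against 9.21% of all kept, and none of the 4 passed after adjustment. The authors listed C1qa and 1417063_at as lower and 1434366_x_at as higher in buds with the PTHrP-/- label. The bud side of these contrasts is therefore no independent evidence, and nothing is read from the count or from the shared direction.

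Across the 15 arrays C1qa and C1qb at 1417063_at moved together, with Pearson's r = 0.862, given with those below as a description since arrays of a group share their tissue. Within groups, after each group's mean was taken off, r was 0.163, so their likeness lay between the groups and not among the arrays of a group. C1qa correlated at 0.748 with 1437726_x_at and 0.515 with 1434366_x_at, and the C1qb probe sets correlated with each other at 0.491 to 0.752. Over all arrays 1417063_at was thus closer to C1qa than to the other probe sets of its own gene, but within groups it was closer to 1434366_x_at (r = 0.522) than to C1qa, and ran against 1437726_x_at (-0.40). The authors listed C1qa and 1417063_at in the same directions, and 1434366_x_at in the opposite direction in the buds. The order of likeness over all arrays is therefore no independent evidence.

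**Figure D3:**
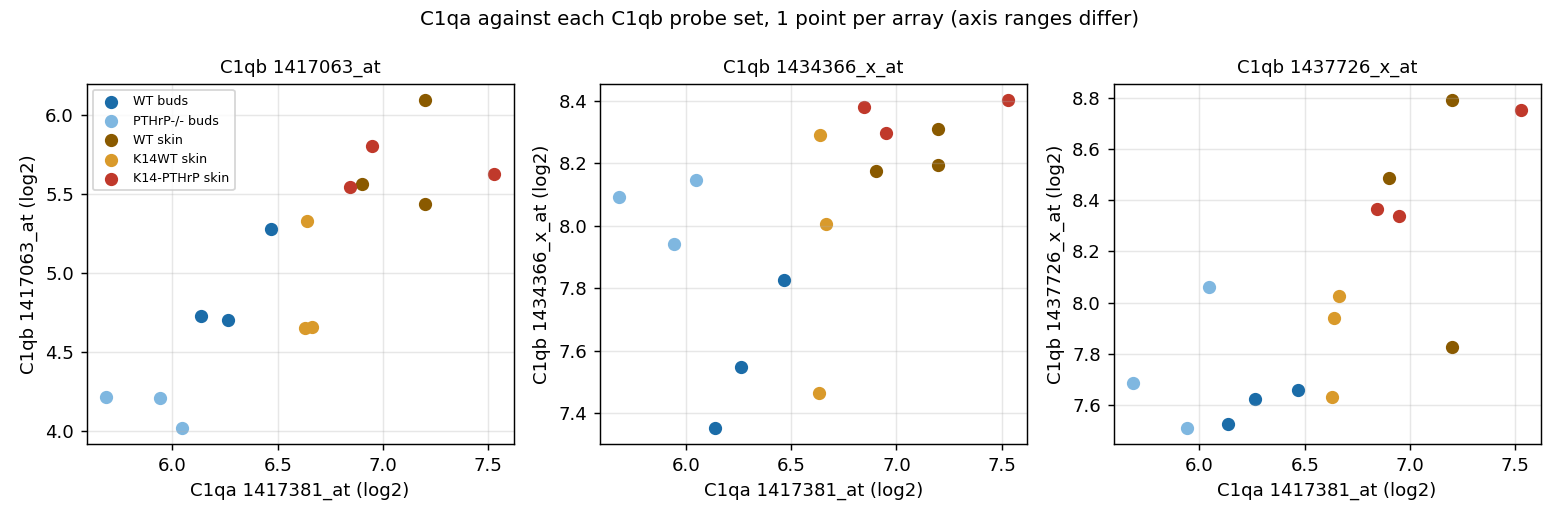
C1qa level (x axis, log2) against each C1qb probe set (y axis, log2), with 1 point per array coloured by group. At 1417063_at the arrays run from buds with the PTHrP-/- label at the lower left to WT skin and skin with the K14-PTHrP label at the upper right, and at 1434366_x_at the arrays labelled PTHrP-/- sit above those of WT buds at a lower C1qa.

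The named genes most like each member over the 15 arrays differed between the probe sets. For C1qa they were the endothelial secreted protein Egfl7 (r = 0.910), the endothelial adhesion protein Esam (0.892), Ccdc80 (0.873), Esyt1 (0.868) and the kinase gene Camk1 (0.865). For C1qb at 1417063_at they were Apoe, the lipid carrier that macrophages also make (0.933), the lysosomal protease Ctsz (0.918), the endothelial receptor partner Ramp2 (0.903), the protein disulfide isomerase Pdia6 (0.902) and Esyt1 (0.890). Within groups r with it was 0.714 for Apoe, 0.792 for Ctsz, 0.780 for Pdia6, 0.612 for Ramp2 and 0.447 for Esyt1. With C1qa it was 0.795 for Egfl7, 0.569 for Camk1, 0.495 for Ccdc80, 0.277 for Esam and -0.052 for Esyt1. For 1434366_x_at they were the transcription factors Fli1 (0.912) and Tcf4 (0.862), the chaperones Hspa8 (0.852) and Hspa5 (0.851) and the ribosomal protein Rpl17 (0.850). For 1437726_x_at they were Cpxm2 (0.867), the mural and fibroblast receptor Pdgfrb (0.862), Cdc42ep1 (0.797), the leukocyte membrane protein Ms4a6b (0.781) and the lipase Lpl (0.771). Esyt1 was the only gene named for more than 1 probe set. Each r belongs to 1 probe set of the gene, and other probe sets of Ramp2 ran differently. The brightest of Ramp2 had means of 10.33 (WT buds), 10.24 (PTHrP-/- label), 9.47 (WT skin), 7.43 (K14WT skin) and 8.04 (K14-PTHrP label). Apoe read 5.48, 5.59 and 5.74 in WT buds and 3.75, 3.98 and 4.47 in buds with the PTHrP-/- label (-1.53 ± 0.25, limma adjusted p = 0.0677, 0.0298 when only the bud groups were fitted and 0.0100 with array weights). In skin with the K14-PTHrP label Apoe was 0.74 ± 0.25 above K14WT skin (adjusted p = 0.280, and 0.0193 with array weights).

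Other genes of leukocytes were few among the named probe sets. Of 42 macrophage markers 3 were named and kept (Lyz2, Ctss and Lyve1), and of 28 genes shared by leukocytes 4 (Coro1a, Arhgdib, Laptm5 and Cyba). In WT skin against WT buds Arhgdib was 0.69 ± 0.16 higher (limma adjusted p = 0.04997), a call lost in most alternatives, for example with a trended prior variance (0.0529) or without WT bud replicate 2 (0.249). Not passing were the actin-binding Coro1a at 0.74 ± 0.21 (adjusted p = 0.132), the lysosomal membrane protein Laptm5 at 0.56 ± 0.17 (0.174), the protease cathepsin S, Ctss, at 0.56 ± 0.20 (0.282), and lysozyme, Lyz2, at 0.36 ± 0.20 (0.606). With array weights Coro1a (limma adjusted p = 0.0151), Laptm5 (0.0135), Ctss (0.0192) and the dimmer Lyve1 probe set (0.0453) passed, and Coro1a also when only these groups were fitted (0.0371). The macrophage and leukocyte lists had 0 of 3 and 1 of 4 genes called higher, 0 lower, and medians of 0.56 and 0.63, beside 0.01 over all kept probe sets. The summed linear signal of the 4 leukocyte genes was 1430 to 1780 in WT skin and 985 to 1280 in WT buds. Every one of these genes was named because it stood on an authors' list, which favours large differences in the bud and WT skin comparisons.

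In the bud and K14 comparisons these genes held both signs. In buds with the PTHrP-/- label Lyz2 was at -0.42 ± 0.20 (adjusted p = 0.368) and the oxidase subunit Cyba at -0.47 ± 0.18 (0.307), both with every array below the WT buds. Coro1a, Laptm5, Ctss and Arhgdib were at -0.08, -0.04, 0.18 and 0.18, with overlapping arrays. Arrays did not overlap in either direction for 32.2% of kept probe sets, so nothing is read from the lack of overlap. Medians were 0.09 and -0.06 for the macrophage and leukocyte lists, with 0 of 7 genes called, beside -0.03 over all. In skin with the K14-PTHrP label the medians were 0.16 and 0.18, again with 0 of 7 called. Cyba (0.44 ± 0.18, adjusted p = 0.386) and Lyz2 (0.31 ± 0.20, 0.528) were on the side of C1q, and Arhgdib (-0.39 ± 0.16, 0.386) and Lyve1, a hyaluronan receptor of lymphatic vessels and some macrophages (-0.58 ± 0.30 at its brighter probe set, 0.468), on the other. With array weights Cyba passed (0.57, limma adjusted p = 0.0280). In K14WT against WT skin all 4 leukocyte genes had differences below 0, as the 4 C1q probe sets did, with a median of -0.44. The macrophage median was -0.125, with 0 of 7 genes called lower, against 5.98% of kept probe sets. Differences above 0 were held by 41.6% of kept probe sets ending in _x_at and 43.8% of the others. These genes are named through lists that include WT skin against WT buds, with the same WT skin arrays. Nothing is therefore read from the shared direction. With array weights Coro1a (-0.82, adjusted p = 0.000533), Cyba (-0.59, 0.00308) and Laptm5 (-0.34, 0.0382) passed, and Coro1a (-0.84, 0.0160) and Cyba (-0.65, 0.0281) also did without K14WT replicate 1. The part of leukocyte number in the C1q differences was not tested.

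**Figure D4:**
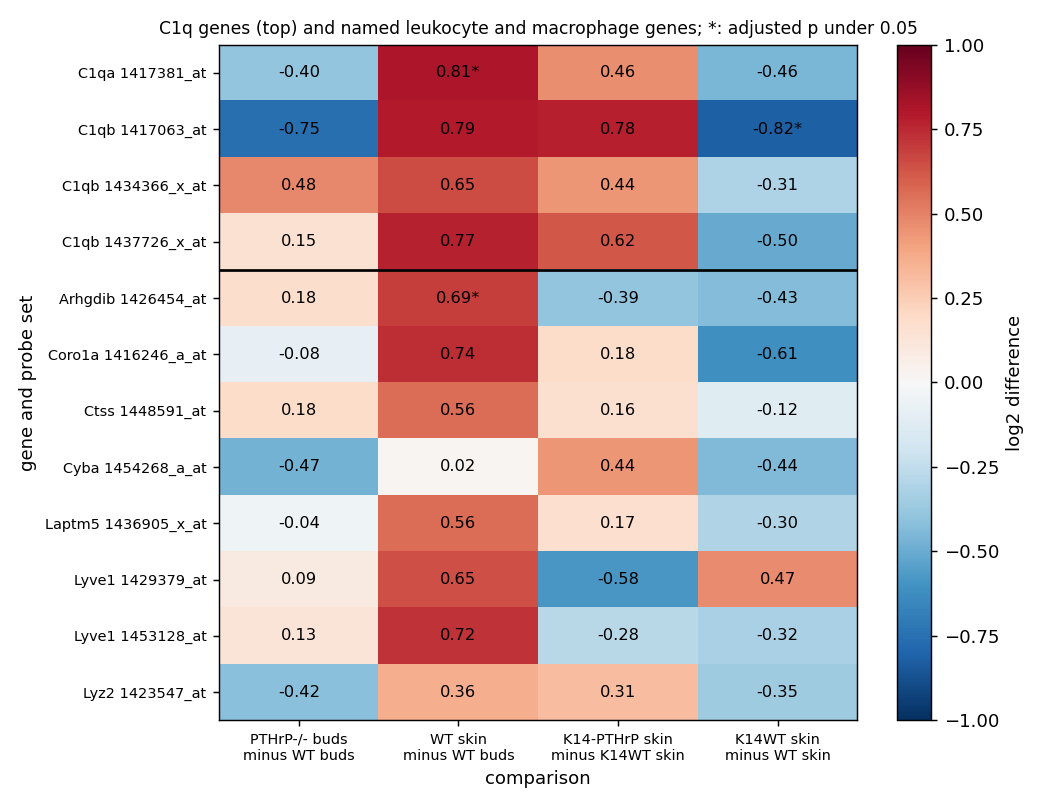
Log2 difference (colour and printed value) of the C1q probe sets (above the line) and of the named macrophage and leukocyte genes (below it) in 4 comparisons; an asterisk marks an adjusted p under 0.05. WT skin against WT buds is positive in every row, and in the bud and K14 comparisons the lower rows hold both signs.

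Of 48 other complement genes, 3 were named. C1qbp, a mostly mitochondrial protein that can bind the globular heads of C1q, was the only 1 kept. It was at -0.36 ± 0.16 in buds with the PTHrP-/- label (adjusted p = 0.338), with every array below the WT buds. Such a lack of overlap, in either direction, was seen for 32.2% of kept probe sets. In WT skin against WT buds C1qbp was at -0.17 ± 0.16 (0.859). Serping1, which encodes the inhibitor of the C1 proteases, and the C1q-related C1qtnf4 did not pass the filter on low values. Cd93, once called the C1q receptor and found on endothelium and myeloid cells, rose in WT skin by 1.08 ± 0.21 (adjusted p = 0.0139) and was at 0.34 ± 0.21 in skin with the K14-PTHrP label (0.517). Its call was lost without the probe sets on which WT skin stood apart (adjusted p = 0.0535), when only these groups were fitted (0.103), and without WT bud replicate 2 or 3 or WT skin replicate 1 or 2 (0.0618 to 0.0798).

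Markers of other cells moved beside C1q in WT skin. Of 7 endothelial genes 1 was called higher, Esam (0.80 ± 0.16, adjusted p = 0.0155), with a list median of 0.65. That median is the value of Lyve1, which is also on the macrophage list. Differences were above 0 for 6 of the 7 genes, and the brightest Ramp2 probe set was at -0.86. Over all 11 kept endothelial probe sets the median was 0.33. Of 9 dermal fibroblast genes 3 were called higher, with a median of 0.71, and of 13 genes of epidermis and bud epithelium 5 were called lower, with a median of -0.58. Over all kept probe sets 0.941% were called higher and 0.89% lower, and these genes have names only through the authors' lists, which include those of this comparison, so nothing is read from the counts. In skin with the K14-PTHrP label the endothelial list had a median of 0.28 with 0 of 7 called. The fibroblast list had a median of -0.21 with 1 of 9 called, and that 1 was called higher. Of kept probe sets 0.71% were called there in either direction. In buds with the PTHrP-/- label the endothelial median was -0.09 and the fibroblast median 0.00, with 0 called in each. The part of these tissue shares in the C1q differences was not tested.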

How the data were processed

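Expression levels were deposited as log2 values that the authors made with GC-RMA, per the file headers of the lists. The submitters' processing notes add the names MAS5 and affy, with no version. The lists deposited by the authors give group means as linear signal intensity in whole numbers. They also hold a fold change, a signed score, beside present, marginal and absent calls and other text, per the file headers. Cyber-T gave their false discovery rates (p-value or q-value scale), per the file headers. No genome build is given in the sources used here. Symbols came from the lists, updated through gene IDs in a RefSeq table (2323 of 2384 IDs matched).

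The 64 control probe sets were left out, and 11690 probe sets above their array's median on at least 3 arrays were kept. With limma 3.58.1 (R 4.3.3), 5 group means were estimated over 15 arrays (10 residual degrees of freedom), and eBayes gave a prior SD of 0.166 on 3.09 prior degrees of freedom. Each test was two-sided, with Benjamini-Hochberg adjustment across the kept probe sets of a comparison. Array medians ran from 3.86 to 4.05, and no further normalization was applied. The fit was tested on simulated data. The number of arrays limits the precision. Named genes were the kept members of the macrophage, leukocyte and complement lists, up to 3 of each other list, and the 5 genes most correlated with each member. The test of bud against skin effects was added after the data were seen. Members and gene lists were chosen with earlier results of these data known. Tables and plots were made with Python 3.11.15 (pandas 2.3.3, scipy 1.17.1, matplotlib 3.10.9).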

Additional observations from a re-analysis of the deposited data

How the results depend on the processing

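Over the 4 C1q probe sets and 10 comparisons between groups, 567 alternative values kept their direction and side of the threshold, 37 fell short of it, 20 newly passed it and 16 changed sign, and the cause was not tested. Array weights newly passed C1qa in K14WT against WT skin (-0.37) and WT buds (0.36). They newly passed 1417063_at in the buds (-0.76), in WT skin (0.70) and K14-PTHrP skin (0.84) against WT buds, in K14-PTHrP against K14WT skin (1.03) and in K14WT skin against PTHrP-/- buds (0.56). They also passed 1434366_x_at in WT skin (0.63) and K14WT skin (0.40) against WT buds, and 1437726_x_at in WT skin against WT buds (0.86), K14WT against WT skin (-0.48), and WT (0.71) and K14-PTHrP (0.61) skin against PTHrP-/- buds. Without the filter on low values C1qa lost K14WT skin against PTHrP-/- buds (0.75), 1417063_at lost K14WT against WT skin (-0.82) and 1437726_x_at lost K14-PTHrP skin against WT buds (0.88). With arrays centred on their medians the first (0.755, adjusted p = 0.0696) and the last (0.86) were lost too. With only the 2 groups compared, C1qa lost K14-PTHrP skin against WT buds (0.82) and PTHrP-/- buds (1.22), 1417063_at K14WT against WT skin (-0.82), 1434366_x_at (0.78) and 1437726_x_at (0.88) K14-PTHrP skin against WT buds. Without the probe sets on which WT skin stood apart, an alternative chosen after seeing the data, C1qa lost WT skin against WT buds (0.81). Replicate numbers were not taken to pair the samples. Same-numbered arrays correlated at -0.02, -0.05 and 0.26 in the buds, 0.14, -0.04 and -0.11 in WT skin and WT buds, 0.31, 0.18 and -0.14 in K14-PTHrP and K14WT skin, and -0.0099, 0.18 and 0.02 in K14WT and WT skin. With the replicate block, 1417063_at in K14WT against WT skin lost its call (-0.82, limma adjusted p = 0.0555), and no other C1q call changed.

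In K14-PTHrP against WT skin, where no C1q difference passed, the sign turned with array weights for C1qa (-0.054), 1417063_at (0.13) and 1437726_x_at (-0.093), and with quantile normalization for 1417063_at (0.035). Leaving out 1 array at a time gave these ranges where a call or sign changed. For C1qa, WT skin against WT buds gave 0.73 to 0.91 and K14-PTHrP skin 0.61 to 0.95, with 0.65 to 0.83 in K14WT skin against PTHrP-/- buds, and -0.20 to 0.14 in K14-PTHrP against WT skin. For 1417063_at, the skins against WT buds gave 0.59 to 0.98 (WT), -0.25 to 0.17 (K14WT) and 0.66 to 0.94 (K14-PTHrP), with 0.66 to 1.002 in K14-PTHrP against K14WT skin, -1.04 to -0.62 in K14WT against WT skin, and -0.17 to 0.16 in K14-PTHrP against WT skin. For 1434366_x_at, K14WT skin against WT buds gave 0.16 to 0.57 and K14-PTHrP skin 0.67 to 0.91, with and -0.32 to 0.089 in K14WT skin against PTHrP-/- buds. For 1437726_x_at, PTHrP-/- against WT buds gave -0.0051 to 0.27, and against WT buds WT skin gave 0.55 to 1.04 and K14-PTHrP skin 0.75 to 0.96, with -0.78 to -0.29 in K14WT against WT skin, 0.40 to 0.89 (WT) and -0.0093 to 0.27 (K14WT) for skin against PTHrP-/- buds, and -0.155 to 0.33 in K14-PTHrP against WT skin. Among other named genes the bud difference turned sign with quantile normalization for Coro1a (0.012) and Laptm5 (0.070). Without 1 array it ran from -0.16 to 0.052 for Coro1a and -0.12 to 0.057 for Laptm5, and in K14-PTHrP against K14WT skin from -0.038 to 0.30 for Laptm5 and -0.12 to 0.37 for Ctss. Over all kept probe sets of a list, the macrophage median in K14-PTHrP against K14WT skin became -0.0585 and the erythroid median in the buds 0.0868.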

Other observations

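Genes of phagocyte work outside complement moved in both directions. Of 12 lysosome and lipid genes, all named through the authors' lists, 2 were called higher in WT skin against WT buds (0.941% of kept probe sets were), the protease Ctsh (0.76 ± 0.11 SE, limma adjusted p = 0.000613, 3 arrays per group) and the lipase Lpl (0.57 ± 0.11, 0.0162). In skin with the K14-PTHrP label Lpl was again higher, by 0.57 ± 0.11 over K14WT skin (limma adjusted p = 0.0416). Ctsh was lower there (-0.51 ± 0.11, 0.0450), a call lost in 10 alternatives, among them the fit of those groups alone (0.340) and the omission of K14WT replicate 2 or 3 or of any K14-PTHrP array (0.0563 to 0.190). The list median was -0.26 in the bud comparison with 0 of 12 called, and 0.20 and 0.18 in the skin ones. Of 9 genes listed for phagocyte receptors and bridging proteins, 1 was called lower in K14WT than in WT skin, against 5.98% of kept probe sets. It was Cd47, the "do not eat" signal of many cells (-0.85 ± 0.15, limma adjusted p = 0.0051). WT skin was the group apart, with a Cd47 mean of 6.27 beside 5.42 (K14WT skin) to 5.65 (WT buds) in the other groups. The list medians were -0.13 in the buds, 0.28 in WT skin against WT buds and 0.10 in skin with the K14-PTHrP label.

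Skeletal muscle genes had a median of -0.51 in buds with the PTHrP-/- label, with 0 of 13 called, and of 0.54 in K14WT against WT skin, with 1 of 13 called higher, against 1.39% of kept probe sets. The 3 erythroid genes had medians of -0.25 in the bud comparison and 0.29 in WT skin against WT buds, with 0 called. Kit was the only kept marker of other leukocytes (0.58 in the buds, not called) and Bax the only kept gene of cell death (-0.34, not called).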
